A study of Arabidopsis thaliana with 9 samples.

Results

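The 35 genes described here encode nuclear subunits of photosystem I, photosystem II, the cytochrome b6f complex and the chloroplast ATP synthase, though not all of them. They also include the genes of plastocyanin, leaf ferredoxin-NADP reductase (FNR) and leaf ferredoxin. They were picked by gene identifier and function from the 33977 gene rows of each deposited table, and the light-harvesting antenna genes were left out. All 35 had reads, and all passed a mean of 1 CPM (reads scaled to library size) in each comparison. RNA was sequenced from whole Arabidopsis seedlings 4 days old, raised on MS plates in continuous white light. The groups were a myb30 mutant, plants overexpressing the transcription factor MYB30 (MYB30-OE) and the wild type, all in the Col ecotype, with 3 libraries each. The sources used here name neither the mutant allele nor the promoter that drives MYB30 in the overexpressor, nor the number of independent lines. The authors deposited pairwise comparisons not single libraries, so levels are given per genotype, and errors come from the deposited p-values. Every log2 fold change below is that of the authors' deposited table for the comparison named, with the first-named genotype over the second. The labels do not say whether libraries of a genotype came from separate plantings, so those p-values may measure technical spread only.

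In the thylakoid membrane, photosystem II takes electrons from water at a manganese cluster held by the oxygen-evolving proteins. The electrons pass through the cytochrome b6f complex to plastocyanin, a small copper protein, and from there to photosystem I. Photosystem I hands them to ferredoxin, from which FNR makes NADPH, while the ATP synthase uses the proton gradient that the chain builds. The reaction centre proteins themselves are encoded in the chloroplast genome, and the nuclear genes supply other subunits, among them small, docking and lumenal ones. Nuclear photosynthesis genes are known to be induced by light in seedlings, and GOLDEN2-LIKE (GLK) factors, HY5 and phytochrome-interacting factors are known regulators of them. Many of these subunits are encoded by a pair of genes in Arabidopsis.

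The 250 bases upstream of each annotated start were read for 4 short motifs on both strands. These were the G-box (CACGTG), which HY5 and phytochrome-interacting factors bind, the I-box (GATAAG), found in many light-responsive promoters, CCAATC, reported to be bound by GLK factors, and AACAAAC, reported to be bound by MYB30. The G-box was present upstream of 17 members, which is 48.6% of them, against 9.27% of 18550 genes at 1 CPM or more and 6.75% of all 33330 annotated genes. The I-box was present upstream of 21 members (60%), against 13.2% of the expressed genes and 13.1% of all genes. CCAATC was present upstream of 11 members (31.4%), against 11.55% of the expressed genes and 11.03% of all genes. AACAAAC was present upstream of 3 members, PSAD1, PSBO1 and FD2 (8.57%), against 10.7% of the expressed genes and 11.55% of all genes. At least 1 of the first 3 motifs was found upstream of 29 members (82.9%, against 29.9% of expressed genes), and none of those 3 upstream of PSAG, PSAN, PSBS, PSBX, LFNR2 and FD2. The shares describe the letters in these windows, and a match is not a binding site.

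**Figure D1:**
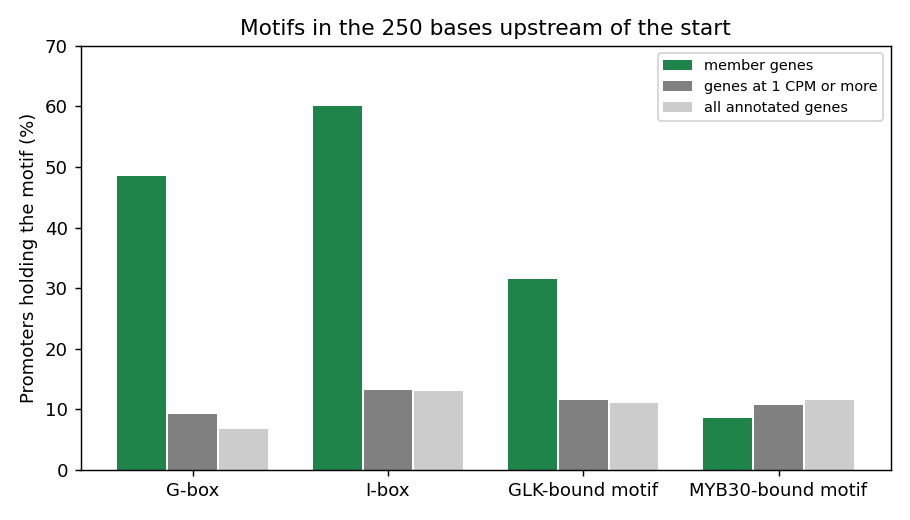
Share of promoters (%, vertical axis) that held each of 4 motifs in the 250 bases upstream of the annotated start, for the 35 member genes (green), genes at 1 CPM or more (dark grey) and all annotated genes (light grey). The member bars stand at 48.6% for the G-box and 60% for the I-box, against 9.27% and 13.2% of the expressed genes, and the MYB30-bound motif stands at 8.57% against 10.7%.

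All 6 genes of the oxygen-evolving proteins held a G-box. The copy nearest the start is shown in capitals in the stretches below, each 24 bases long and read 5′ to 3′ on the strand of the gene. In this group that copy began between 49 bases (PSBO2) and 172 bases (PSBP2) upstream of the start. PSBQ1 and PSBQ2 held a further copy, not shown in these stretches, which began 133 and 145 bases upstream.
PSBO1, chr5:26568566-26568589, plus strand: agatttcgaCACGTGgcaacaaaa
PSBO2, chr3:18892461-18892484, minus strand: agctttagaCACGTGgctattgat
PSBP1, chr1:2047732-2047755, plus strand: cgtatctgcCACGTGgcacaatac
PSBP2, chr2:13120248-13120271, minus strand: gctcacagcCACGTGgcaagatgg
PSBQ1, chr4:11334288-11334311, plus strand: caaaaatgaCACGTGgttttatat
PSBQ2, chr4:2673306-2673329, minus strand: tcaagaaacCACGTGtcaacatat
A G-box together with an I-box was found upstream of 9 members (25.7%), against 1.45% of the expressed genes and 1.06% of all genes. The PSAH pair, which encodes a photosystem I subunit at the docking site of mobile antenna, held an I-box and more than a single G-box in both copies. Between the first base of the I-box and that of the nearer G-box there were 17 bases in both. For the other G-box the distance was 70 bases in PSAH1 and 72 bases in PSAH2. The stretches below show in capitals the I-box, as its reverse complement CTTATC, and the nearer G-box.
PSAH1, chr3:5469568-5469595, minus strand: acCTTATCctactagattcCACGTGgca
PSAH2, chr1:19454712-19454739, plus strand: gcCTTATCtttttataatcCACGTGgca
The ferredoxin genes differ in this window. FD1 held a G-box and FD2 held none of the first 3 motifs but an AACAAAC, in capitals below.
FD1, chr1:3664324-3664353, plus strand: cacatcgtacgcCACGTGgcagattcacct
FD2, chr1:22444250-22444279, plus strand: tgattttagtggAACAAACgaagagttatt

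Sequences and positions are those of TAIR10, read from the RefSeq TAIR10.1 genome at the starts of the authors' deposited annotation. For 30 of the 35 members the RefSeq annotation places the start further upstream, so that part of the window lies inside its transcript. In the deposited annotation, the windows of PSAD2, PSAE2, PSAH2, PSAN, PSBO1, PSBP1, PSBW, PSBX, PSBTN and ATPD overlap an exon of another gene. The windows of PSBQ2 and PETC overlapped no RefSeq gene and are given whole, as a densely marked window of the oxygen-evolving group and as that of the only nuclear b6f subunit among the members. Capitals mark the G-box, the I-box (GATAAG or CTTATC) and the GLK-bound motif (CCAATC or GATTGG).
PSBQ2, chr4:2673244-2673493, minus strand: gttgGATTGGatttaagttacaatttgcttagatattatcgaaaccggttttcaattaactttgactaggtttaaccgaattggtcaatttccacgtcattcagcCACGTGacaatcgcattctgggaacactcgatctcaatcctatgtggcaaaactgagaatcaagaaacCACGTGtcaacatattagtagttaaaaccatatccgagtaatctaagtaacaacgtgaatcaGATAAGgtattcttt
PETC, chr4:1439896-1440145, plus strand: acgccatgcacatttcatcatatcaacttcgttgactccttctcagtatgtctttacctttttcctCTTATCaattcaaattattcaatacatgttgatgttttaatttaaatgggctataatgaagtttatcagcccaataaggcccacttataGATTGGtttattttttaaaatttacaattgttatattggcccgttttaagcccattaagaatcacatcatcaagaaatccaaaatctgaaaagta

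Mean library size, as the deposited values imply it, was 36516306 reads in myb30, 32367678 reads in MYB30-OE and 33905536 reads in Col. MYB30 (AT3G28910) itself was at 4.55 CPM in myb30, against 32.2 CPM in Col, and at 617 CPM in MYB30-OE, against 31.7 CPM in Col. In the authors' deposited tables its log2 fold change was -2.82 and 4.28, and since the sign of the tables was read from MYB30 this does not test the labels. Of the cell type markers, a list of seed storage protein and oil-body oleosin genes, typical of embryos and germinating seeds, stood apart. All 10 of that list passed upward in both lines, and they summed to 644 CPM in myb30 seedlings and to 136 CPM in MYB30-OE seedlings, against 15.5 CPM in Col. Of 14 root markers, 5 passed upward in myb30 and 3 in MYB30-OE, and 7 had a fold change below 1 in each line. Their sums were 207, 178 and 174 CPM in myb30, MYB30-OE and Col. Of 7 guard cell and phloem markers, 5 passed downward in myb30 and 2 in MYB30-OE, with sums of 94.5, 133 and 135 CPM in myb30, MYB30-OE and Col. Over all genes tested, 10.8% passed upward and 10.7% downward in myb30, at an adjusted p under 0.05. In MYB30-OE 5.99% of all genes tested passed upward and 5.49% downward. No marker of these lists was at 0 in any genotype. The part of these shifts in the results on photosystem genes was not tested, and in whole seedlings fewer photosynthetic cells and less RNA per cell cannot be told apart.

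The members were among the most abundant nuclear transcripts of these seedlings. Together they made up 2.56% of the reads on genes in myb30, 4.35% in MYB30-OE and 3.76% in Col. Among the 100 genes with the highest CPM, 12 were members in myb30, 19 in MYB30-OE and 16 in Col. PSBO1 (AT5G66570), the main form of the protein that stabilises the manganese cluster, had the highest CPM, at 1788, 3566 and 2885 CPM in myb30, MYB30-OE and Col. Scaled by exon length, PSBR (AT1G79040), a small photosystem II protein needed for stable binding of the oxygen-evolving proteins, was highest. It stood at 2315 CPM per kilobase in myb30, 4840 in MYB30-OE and 3968 in Col. PSBP2 (AT2G30790), a second copy of the oxygen-evolving gene PSBP1 (AT1G06680), was lowest, at 0.965 CPM per kilobase in myb30, 1.301 in MYB30-OE and 1.337 in Col, which corresponds to 95.3, 113.8 and 122.5 implied reads over the 3 libraries of each genotype. The next lowest per kilobase were PETE1 (AT1G76100), the minor plastocyanin, at 139, 199 and 198, and PSB28 (AT4G28660), a photosystem II assembly factor, at 181, 209 and 232, in myb30, MYB30-OE and Col.

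**Figure D2:**
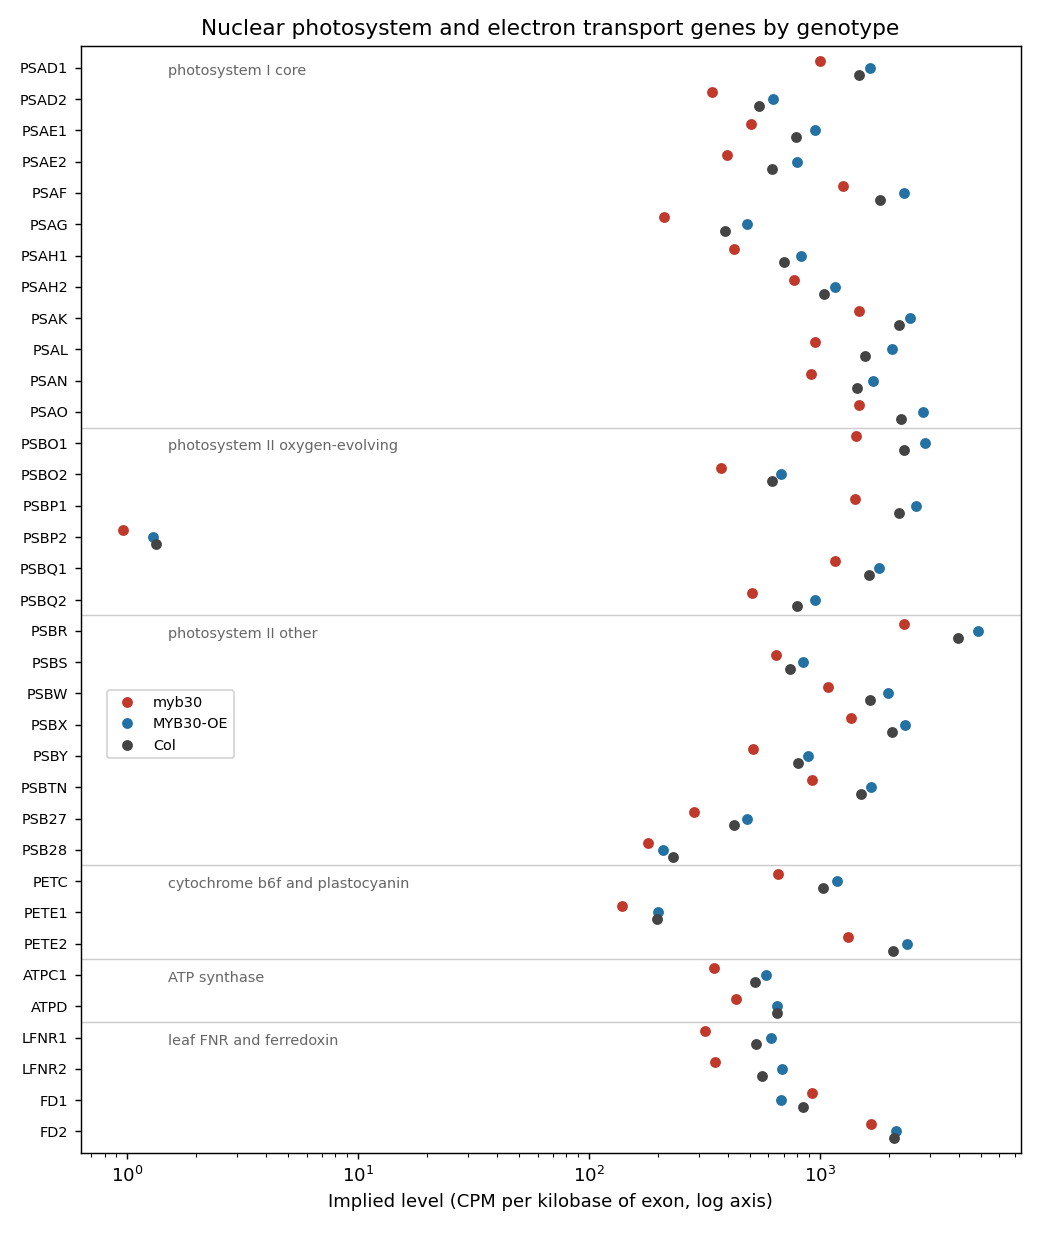
Implied level of each member gene in CPM per kilobase of exon (logarithmic axis) in myb30, MYB30-OE and Col, grouped by role, with 1 point per genotype and no error, since the tables used hold no single libraries. For 34 members the myb30 point lies left of both others, and FD1 is the exception, at 929 in myb30, 683 in MYB30-OE and 847 in Col.

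Loss of MYB30 was accompanied by lower transcripts along most of the chain. In myb30 against Col, 32 of the 35 members fell and 0 rose, at an adjusted p under 0.05, while 10.7% of all 25713 genes tested fell and 10.8% rose. No member was higher at an unadjusted p under 0.05 either. Of 18528 other genes at or above the mean level of the lowest member, 1.04 CPM, 13.3% fell and 13.2% rose at that adjusted p. Their median implied standard error was 0.150 on the log2 scale, against 0.111 for the members, so smaller changes could pass among the members. The median member log2 fold change was -0.64 (interquartile range -0.69 to -0.56), against 0.01 (-0.30 to 0.32) over all genes tested. The members that fell did so by 1.26-fold to 1.84-fold, so none reached a 2-fold change. The genes that did not pass were PSBP2, PSBS (AT1G44575) and FD1 (AT1G10960). The standard error implied by the deposited p-values was between 0.104 and 0.132 on the log2 scale for the 34 members other than PSBP2. Differences between members could not be tested without single libraries.

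All 12 photosystem I genes fell in myb30, with a median log2 fold change of -0.66. Among all members the largest fall was that of PSAG (AT1G55670), which encodes a membrane subunit at the rim of photosystem I that binds the antenna. PSAG was at 166 CPM in myb30, against 306 CPM in Col. Its deposited log2 fold change was -0.88 (95% interval -1.13 to -0.63, adjusted p = 6.29e-10), a 1.84-fold difference. PSAL (AT4G12800), which together with PSAH and PSAO (AT1G08380) forms the docking side for mobile antenna, was at 941 CPM in myb30, against 1564 CPM in Col, with a log2 fold change of -0.73. The smallest fall in photosystem I was that of PSAH2 (AT1G52230), at 515 CPM in myb30, against 697 CPM in Col, with a log2 fold change of -0.44 (95% interval -0.66 to -0.22, adjusted p = 0.00127). PSAH1 (AT3G16140) and PSAO had log2 fold changes of -0.74 and -0.61. PSAK (AT1G30380), a membrane subunit related to PSAG, had -0.59, and PSAN (AT5G64040), a lumenal subunit, had -0.68. The plastocyanin-docking subunit PSAF (AT1G31330) fell by 0.55 on the log2 scale. PSAD1 (AT4G02770), PSAD2 (AT1G03130), PSAE1 (AT4G28750) and PSAE2 (AT2G20260), whose proteins receive ferredoxin on the stromal side, had log2 fold changes of -0.57, -0.69, -0.67 and -0.65.

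Of the 6 oxygen-evolving genes, 5 fell in myb30, and the 6 together summed to 5472 CPM in myb30, against 8564 CPM in Col. PSBO1 was at 1792 CPM in myb30, against 2914 CPM in Col (log2 fold change -0.70, 95% interval -0.91 to -0.49, adjusted p = 3.27e-09). PSBO2 (AT3G50820), the minor form, followed with a log2 fold change of -0.74, PSBP1 with -0.64, PSBQ1 (AT4G21280) with -0.51 and PSBQ2 (AT4G05180) with -0.66. PSBP2 had a log2 fold change of -0.48 with a 95% interval of -1.20 to 0.25 (adjusted p = 0.416), an interval wide enough to hold both no change and the median of the members. With a pseudocount of 1 CPM, close to its level, the log2 fold change of PSBP2 was -0.24.

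Of the other 8 photosystem II genes, 7 fell in myb30. PSBR had the largest difference of this group, at 1670 CPM in myb30, against 2886 CPM in Col, with a log2 fold change of -0.79. PSBW (AT2G30570), PSBX (AT2G06520), PSBY (AT1G67740) and PSBTN (AT3G21055), which encode small subunits of photosystem II, had log2 fold changes of -0.62, -0.59, -0.67 and -0.72. The assembly and repair factors PSB27 (AT1G03600) and PSB28 fell by 0.58 and 0.37 on the log2 scale. PSBS, the pH sensor that switches on heat dissipation of excess light, was at 987 CPM in myb30, against 1151 CPM in Col. Its log2 fold change of -0.22 did not pass (95% interval -0.43 to -0.0087, adjusted p = 0.138).

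Beyond the photosystems, PETC (AT4G03280), the Rieske iron-sulfur protein of the b6f complex, had a log2 fold change of -0.66 in myb30. The plastocyanin genes PETE1 and PETE2 (AT1G20340) had log2 fold changes of -0.52 and -0.67. ATPC1 (AT4G04640) and ATPD (AT4G09650), the gamma and delta subunits of the ATP synthase, had log2 fold changes of -0.61 and -0.61, and all 5 of these genes passed. Of the leaf FNR genes, LFNR1 (AT5G66190) was at 481 CPM in myb30, against 805 CPM in Col (log2 fold change -0.74, adjusted p = 1.07e-10), the smallest adjusted p of all members, and LFNR2 (AT1G20020) had a log2 fold change of -0.69.

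**Figure D3:**
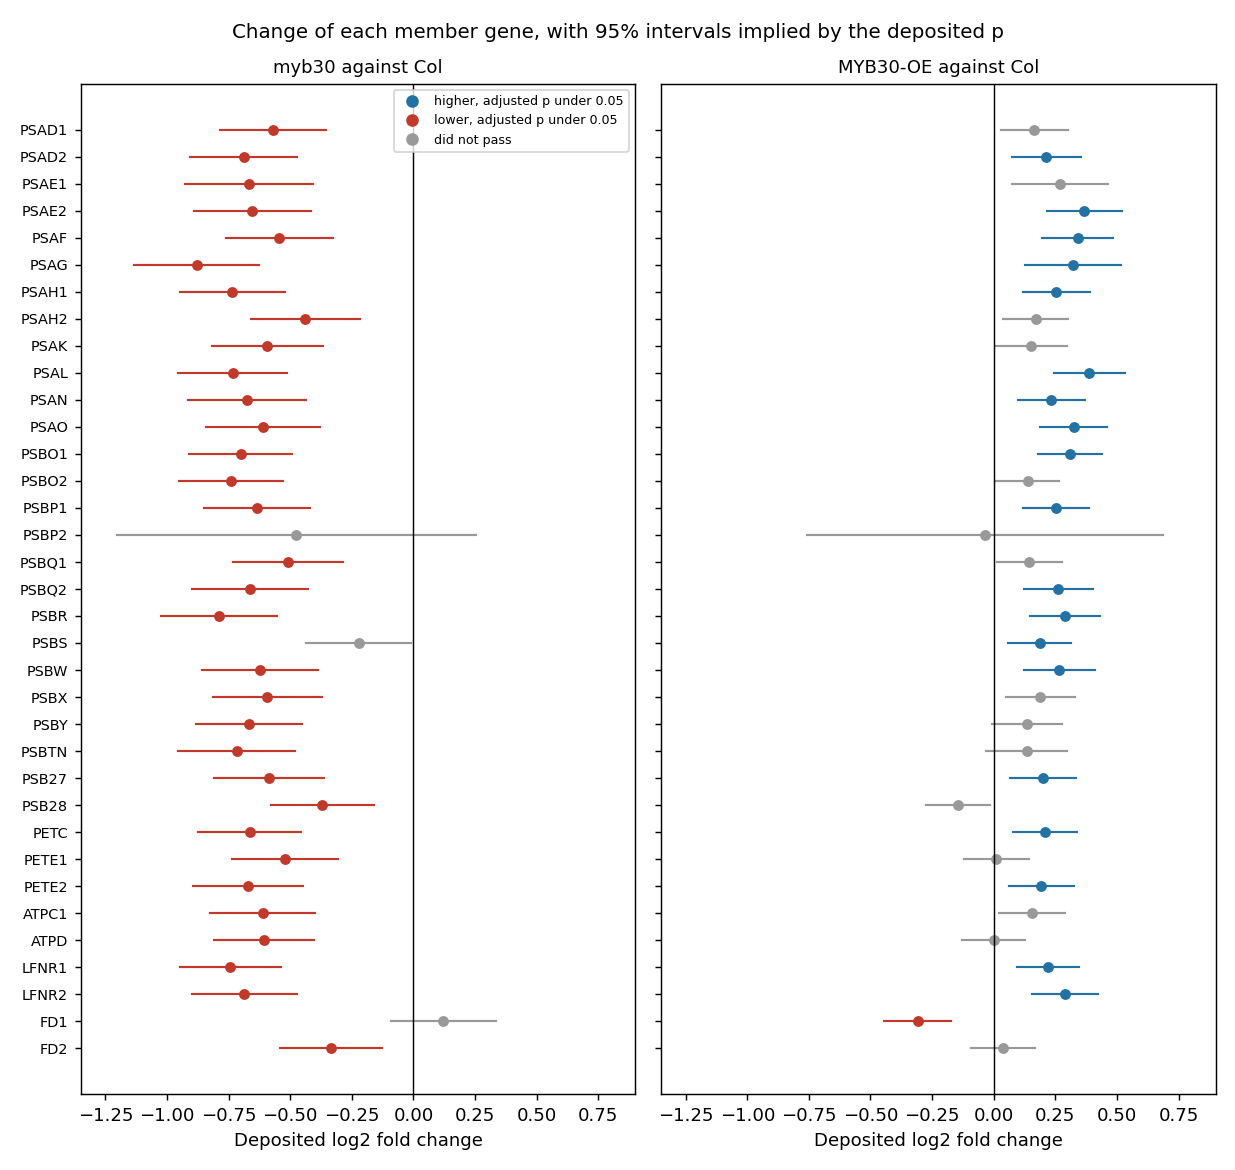
Deposited log2 fold change of each member (points) with the 95% interval implied by the deposited p-value (lines), for myb30 against Col (left) and MYB30-OE against Col (right). Points are coloured by whether the gene passed an adjusted p of 0.05, and 32 members lie below 0 and passed on the left, while 19 lie above 0 and 1, FD1, below 0 on the right.

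Overexpression of MYB30 was accompanied by changes mostly in the other direction, none above 1.31-fold. In MYB30-OE against Col, 19 members rose and 1, FD1, fell, while 5.99% of all 25593 genes tested rose and 5.49% fell. Of 18260 other genes at or above the mean level of the lowest member, 1.18 CPM, 7.17% rose and 6.94% fell. Their median implied standard error was 0.119, against 0.0688 for the members. The median member log2 fold change was 0.20 (interquartile range 0.14 to 0.27), against 0.00 over all genes tested. The rises lay between 1.14-fold and 1.31-fold. Both comparisons share the Col libraries, so they are not independent of each other. With Bonferroni adjustment only 2 members rose in MYB30-OE and the fall of FD1 did not pass, whereas 28 falls in myb30 did.

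In photosystem I, 8 of 12 genes rose in MYB30-OE. PSAL had the largest rise of all members, at 2006 CPM in MYB30-OE, against 1533 CPM in Col (log2 fold change 0.39, 95% interval 0.25 to 0.53, adjusted p = 5.02e-06). PSAE2 rose by 0.37, PSAF by 0.34, PSAO by 0.33 and PSAG by 0.32 on the log2 scale. The photosystem I genes that did not pass were PSAD1, PSAE1, PSAH2 and PSAK, with log2 fold changes of 0.15 to 0.27. Of the oxygen-evolving genes, PSBO1, PSBP1 and PSBQ2 rose. PSBO1 was at 3537 CPM in MYB30-OE, against 2855 CPM in Col (log2 fold change 0.31, adjusted p = 1.17e-04). Among the other photosystem II genes PSBR, PSBS, PSBW and PSB27 rose, by 0.29, 0.19, 0.27 and 0.20 on the log2 scale. PSBS, which did not pass in myb30, thus passed here, with an adjusted p of 0.0377.

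The rest of the chain was mixed in MYB30-OE. Neither ATP synthase gene passed, and ATPD had 625 CPM in MYB30-OE, against 625 CPM in Col, with a 95% interval of the log2 fold change of -0.13 to 0.13. PETE1 had a log2 fold change of 0.01 (95% interval -0.12 to 0.14), while PETC and PETE2 rose by 0.21 and 0.19 on the log2 scale. PSB28 had a log2 fold change of -0.15 and did not pass (95% interval -0.28 to -0.015, adjusted p = 0.160). Both LFNR1 and LFNR2 rose, by 0.22 and 0.29. Together 14 members other than PSBP2 did not pass, and the intervals of several of them, such as PSAE1 (0.07 to 0.47), hold values as large as those of members that did.

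The direct comparison of both lines spanned the widest range. In myb30 against MYB30-OE, 32 members fell and 1, FD1, rose, while 15.4% of 25647 genes tested fell and 16.2% rose. Of 18609 other genes at or above the mean level of the lowest member, 1.02 CPM, 18.9% fell and 20.1% rose. The median member log2 fold change was -0.87. PSAG was at 165 CPM in myb30, against 381 CPM in MYB30-OE (log2 fold change -1.20, adjusted p = 2.39e-29). PSAL, PSBR, PSAE2 and PSBO1 were also more than 2-fold lower in myb30. PSBP2 and PSB28 did not pass, with adjusted p of 0.430 and 0.0797. PSBS fell by 0.41 on the log2 scale. This comparison reuses the same libraries and adds no independent samples.

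The ferredoxin genes held the smallest fall that passed in myb30 and the one fall that passed in MYB30-OE. FD2 (AT1G60950), the main leaf ferredoxin, was at 1399 CPM in myb30, against 1765 CPM in Col, a fall of 1.26-fold (log2 fold change -0.34, 95% interval -0.54 to -0.13, adjusted p = 0.0109). This was near the fall of PSB28, at -0.37. FD1, the minor leaf ferredoxin, was at 609 CPM in myb30, against 560 CPM in Col, and did not pass (log2 fold change 0.12, 95% interval -0.09 to 0.33, adjusted p = 0.501), and its log2 fold change was 0.02 relative to the reference genes. In MYB30-OE, FD1 was at 443 CPM, against 548 CPM in Col, the one member that fell there (log2 fold change -0.31, 95% interval -0.44 to -0.17, adjusted p = 2.46e-04). FD2 was at 1775 CPM in MYB30-OE, against 1729 CPM in Col, and did not pass (log2 fold change 0.04, adjusted p = 0.834). Between the lines, FD1 was 1.35-fold higher in myb30 (log2 fold change 0.43, adjusted p = 1.67e-04), and FD2 was 1.295-fold lower (log2 fold change -0.37, adjusted p = 0.00102). Per kilobase of exon FD1 made up 35.7% of the summed ferredoxin pair in myb30, 24.1% in MYB30-OE and 28.8% in Col.

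**Figure D4:**
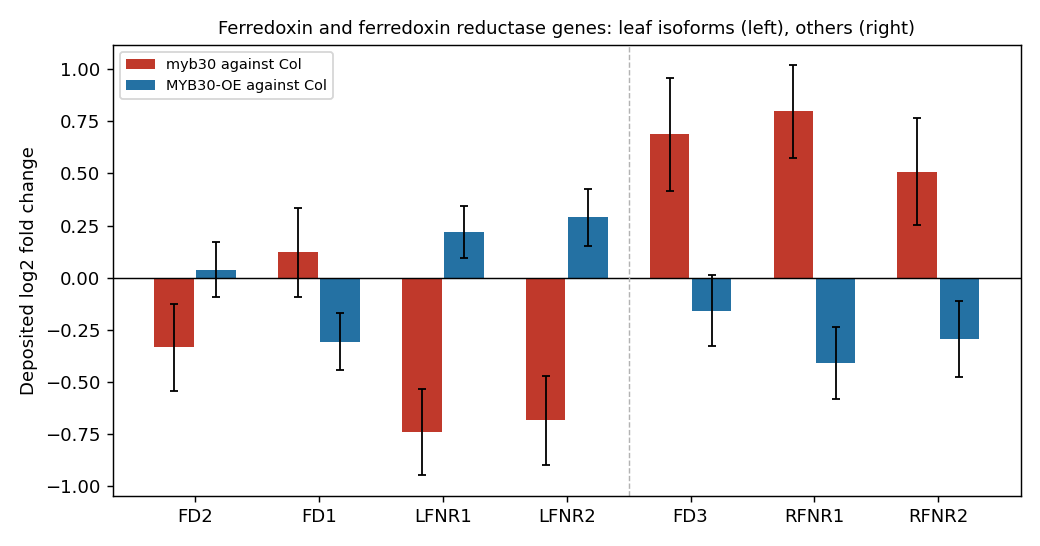
Log2 fold change (vertical axis) of leaf ferredoxin and FNR genes, left of the dashed line, and of root-type genes, right of it, in the authors' deposited tables, as bars for myb30 against Col (red) and MYB30-OE against Col (blue) with implied 95% intervals as lines. LFNR1 stands at -0.74 in myb30 and 0.22 in MYB30-OE, while RFNR1 stands at 0.80 and -0.41 and FD1 at 0.12 and -0.31.

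The genes that also work with ferredoxin split by type. Of 8 measured genes of a list of 10 ferredoxin-linked genes outside the members, 3 rose and 4 fell in myb30, and 3 rose and 2 fell in MYB30-OE. The risers in myb30 were the root-type genes. RFNR1, a root-type FNR, which in roots is known to run towards reduced ferredoxin, was at 98.6 CPM in myb30, against 56.7 CPM in Col (log2 fold change 0.80, 95% interval 0.58 to 1.02, adjusted p = 1.38e-10). FD3, the root-type ferredoxin, was at 123 CPM in myb30, against 76.6 CPM in Col (log2 fold change 0.69), and RFNR2 had a log2 fold change of 0.51 (adjusted p = 0.00123). In MYB30-OE, RFNR1 and RFNR2 fell by 0.41 and 0.29, while FD3 had a log2 fold change of -0.16 and did not pass (adjusted p = 0.281). The leaf and root FNR genes thus passed in opposite directions in each line. Of the 14 root markers, 5 passed upward, 0 downward and 9 not at all in myb30, with a median log2 fold change of 0.16 (lowest -0.47, highest 1.24), and 7 of them had a fold change below 1. In MYB30-OE 3 passed upward, 0 downward and 11 not at all (median 0.06, lowest -0.30, highest 1.503). The part of root tissue in the levels of the root-type genes was not tested. The ferredoxin-thioredoxin reductase genes FTRA2 and FTRB, which pass electrons on to thioredoxins, fell by 0.45 and 0.41 in myb30, and FTRA1 and FTRA2 rose by 0.35 and 0.25 in MYB30-OE.

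Where a subunit is encoded by a pair of genes, the share of each gene in the pair was compared across genotypes without a test. Per kilobase of exon, PSAD1 made up 74.7% of its pair in myb30, 72.5% in MYB30-OE and 73.1% in Col. PSBO1 made up 79.4%, 80.8% and 78.9% of its pair in myb30, MYB30-OE and Col, and LFNR1 47.4%, 47.2% and 48.4%. PSBQ1 made up 69.6% in myb30, 65.4% in MYB30-OE and 67.3% in Col. PETE2 supplied most plastocyanin transcripts, with 90.5% in myb30, 92.3% in MYB30-OE and 91.3% in Col. Apart from the ferredoxins, the share differed most in the PSAH pair, with PSAH1 at 35.4% in myb30, 41.7% in MYB30-OE and 40.3% in Col. No error can be given for these shares. No member shared any identical 50-base exonic window with its pair partner. Windows that differ by a few bases were not sought, so how well the reads of a pair were told apart was not tested. PSAH1 shared 35.2% of its exonic windows with AT3G16130, an overlapping gene on the opposite strand, LFNR1 shared 9.44% with AT5G66180, PSAE2 2.51% with AT2G20270 and PSBR 0.298% with AT1G79050. The sources used here do not say whether reads were counted by strand, so the levels of these genes, above all PSAH1, are uncertain. In the RefSeq annotation PSAE1, PSAG, PSAH2, PSBP1 and PSBP2 also overlap genes on the opposite strand, so the same limit holds for them. Without PSAH1, LFNR1, PSAE2 and PSBR, an alternative chosen after seeing the data, 28 members fell in myb30 and 15 rose in MYB30-OE. The members with only a RefSeq overlap were kept there.

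The wider pathway was read through lists drawn up by function, with earlier results of these data known. Over all genes tested, 10.7% fell and 10.8% rose in myb30, and 5.99% rose and 5.49% fell in MYB30-OE. Of 19 measured antenna genes, 19 fell in myb30 (median log2 fold change -0.65) and 15 rose in MYB30-OE (median 0.31). LHCB1.4, a major antenna gene of photosystem II, changed most, with log2 fold changes of -1.29 in myb30 and 0.57 in MYB30-OE. Next were LHCB2.3 in myb30, with -0.87, and LHCB1.2 in MYB30-OE, with 0.49, both also antenna genes of photosystem II. Of 20 measured genes of the chloroplast NDH complex, which returns electrons from ferredoxin to plastoquinone, 18 fell in myb30 (median -0.74) and 2 rose in MYB30-OE (median 0.07). NDHU, a subunit of its electron-input side, was at 27.6 CPM in myb30, against 61.2 CPM in Col, with a log2 fold change of -1.15. PNSL1, a lumenal subunit, had a log2 fold change of -0.99. Of the MYB30-OE rises, PNSL2 had 0.29 and NDHU 0.28. The NDH count in MYB30-OE, 2 of 20, is near the share over all genes, and the difference between those comparisons was not tested.

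Of 20 genes of cyclic electron flow and thylakoid regulation, 18 fell and 1 rose in myb30 (median -0.51), and 6 rose and 1 fell in MYB30-OE (median 0.11). CURT1B, which bends the membrane at the edges of grana, had a log2 fold change of -0.84 in myb30, and PGRL1A, of the cyclic route around photosystem I, had -0.77. CURT1D, of the same family as CURT1B, was the exception, with 0.36 in myb30 and -0.48 in MYB30-OE. TAP38, the phosphatase that acts on phosphorylated antenna, rose by 0.45 and ZEP, zeaxanthin epoxidase, by 0.25 in MYB30-OE. Of 33 genes of photosystem assembly and repair, 26 fell in myb30 (median -0.46), and 3 rose and 1 fell in MYB30-OE (median -0.00083), which is near the share over all genes. HCF173, needed for translation of the photosystem II reaction centre protein, had log2 fold changes of -0.82 in myb30 and 0.39 in MYB30-OE. PPL1, a PSBP-like repair factor, fell by 0.77 in myb30. In MYB30-OE the protease gene FTSH1 rose by 0.29 and Y3IP1, a photosystem I assembly factor, fell by 0.25.

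A further list held other subunits and accessory genes of the b6f complex, plastocyanin and the ATP synthase. Of its 16 measured genes, 6 fell in myb30 (median -0.28), and 3 rose and 1 fell in MYB30-OE (median 0.01). The largest falls in myb30 were those of ATPG, which encodes a subunit of the ATP synthase stalk, with a log2 fold change of -0.80, and PAA2, the thylakoid copper transporter that supplies plastocyanin, with -0.74. Both rose in MYB30-OE, ATPG by 0.25 and PAA2 by 0.39, while CGLD11, an ATP synthase assembly factor, fell by 0.24. For scale, the 10 reference genes had median log2 fold changes of 0.10 in myb30 and -0.04 in MYB30-OE against Col, and 0.14 between the lines. Relative to that shift, the median of the members was -0.74 in myb30 and 0.24 in MYB30-OE, and PSBS then passed downward in myb30 with a log2 fold change of -0.32. Of the 10 reference genes themselves, 2 passed upward and 0 downward in myb30, and 0 upward and 1 downward in MYB30-OE, against Col. Between the lines 3 passed upward and 1 downward, so the reference genes are not a fixed scale.

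**Figure D5:**
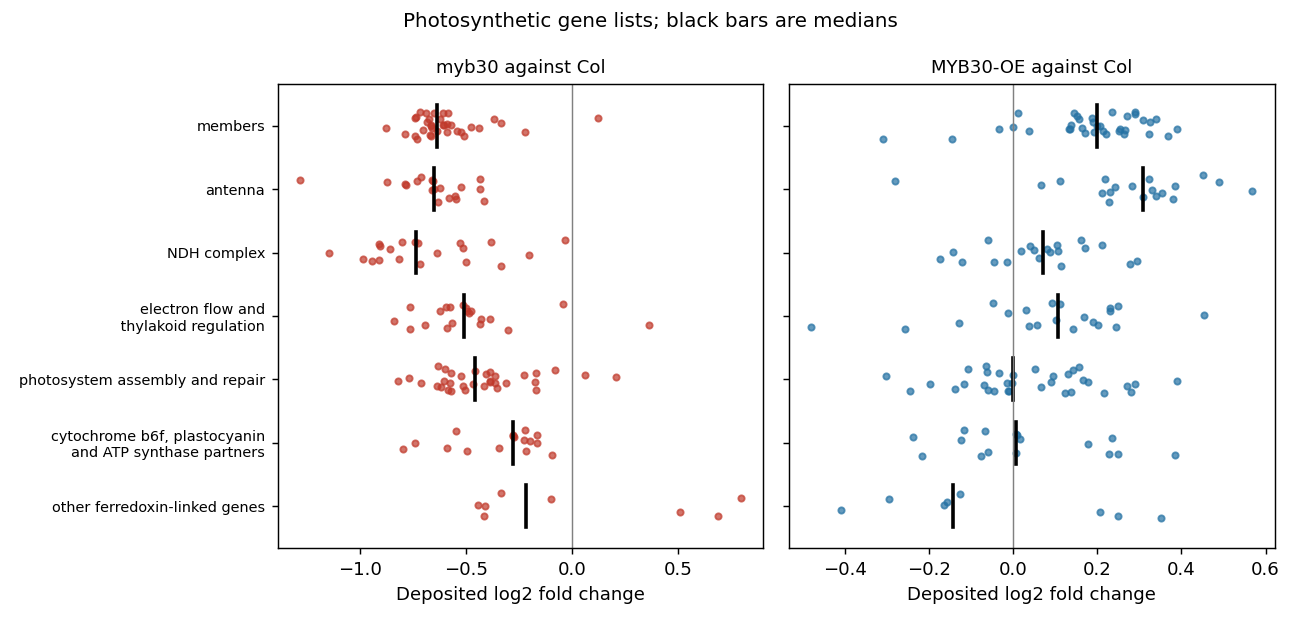
Log2 fold change of each gene (points, horizontal axis) of the members and of 6 pathway lists in the authors' deposited tables, for myb30 against Col (left) and MYB30-OE against Col (right), with the list median as a black bar. The members' median is -0.64 in myb30 and 0.20 in MYB30-OE, the NDH list stands at -0.74 and 0.07, and the root-type ferredoxin and FNR genes lie on the right of the lowest row in myb30.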

How the data were processed

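RNA sequencing reads of 9 libraries (3 each of myb30, MYB30-OE and Col) were processed by the submitters. TopHat, Cufflinks and Cuffdiff appear among the tools and TAIR10 as the build, per the submitters' processing notes, without versions or order. For each pair of genotypes the authors deposited, per gene, an unadjusted p-value, a log2 fold change and the log2 CPM averaged over libraries, per the file headers. The header names are those that edgeR writes, and the sources used here do not say which tool made the test. The authors' annotation gave exons and starts.

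The labels' sample descriptions tied tables to genotypes, and the direction of each fold change was read from MYB30. Here the deposited p-values were adjusted by Benjamini-Hochberg over genes with at least 1 read, at a threshold of 0.05, because the tables hold unadjusted values. CPM per genotype was implied from the fold change and the averaged log2 CPM, assuming 2 reads added per library in the average and 0.125 in the fold change. Levels of 1 genotype from its separate tables differed by at most 2.07% for members. Levels over 3 genotypes are means over those tables, and levels within a comparison come from its own table. Standard errors and 95% intervals were implied from the two-sided p-value by a normal deviate, and are approximate. They cover the authors' model of spread. Level per length used the union of exons. Shared windows of 50 bases were sought over all annotated exons. Of 35176 coding transcripts, 99.98% began with ATG in the RefSeq TAIR10.1 genome, so positions were read there. Motifs were counted in 250 bases, and 1 pair of motif copies overlapped, CCAATC and AACAAAC upstream of PSBO1.

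The members and the 10 gene lists were chosen with earlier results of these data known. The genes named are all members, MYB30, and for each pathway list in each comparison with Col, the 2 passing genes that rose most and the 2 that fell most, with a mean level of at least 1 CPM. RFNR2 and FD3, where they fell outside that rule, were named after their values were seen. Alternatives are given in the closing section. Python 3.11.15 with pandas 2.3.3, numpy 2.4.6, scipy 1.17.1 and matplotlib 3.10.9 was used.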

Additional observations from a re-analysis of the deposited data

How the results depend on the processing

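Counts and medians of the members under the alternatives tried kept their direction. A 2-fold minimum left 0 members lower in myb30 and 0 higher and 0 lower in MYB30-OE against Col, and 5 lower and 0 higher in myb30 against MYB30-OE, since the changes are small. Bonferroni adjustment left 2 members higher and 0 lower in MYB30-OE against Col and 0 higher in myb30 against MYB30-OE, while 28 stayed lower in myb30 against Col and 30 in myb30 against MYB30-OE. At an adjusted p of 0.01 the counts were 31 lower in myb30 and 13 higher in MYB30-OE. Centring on the reference genes moved the median of myb30 against MYB30-OE to -1.01 and gave 33 lower in myb30 and 24 higher in MYB30-OE against Col. Of 105 single-member results, 7 newly passed under that centring and 1 under centring on the median of genes at 1 CPM or more. No call was reversed or lost under either centring. A pseudocount of 1 CPM gave no new p-value, so calls were not remade under it. All 105 log2 fold changes moved by less than their standard error with that pseudocount. Of members that did not pass in MYB30-OE against Col, ATPD moved to 0.037 and PSBP2 to 0.0034 relative to the reference genes, both turning sign. With a pseudocount of 1 CPM, PSBP2 moved to -0.24 in myb30 against Col and to -0.22 in myb30 against MYB30-OE. No member shares windows with a paralog, so leaving out such members changed nothing. Without members that overlap another gene in the deposited annotation, the medians were -0.61 in myb30 and 0.19 in MYB30-OE. That alternative was chosen after seeing the data. No paired analysis was possible because the deposited tables hold comparisons and no values of single libraries, and for the same reason no library could be left out.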
